A study of Homo sapiens with 6 samples.

Results

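The 5 miRNAs studied here belong to the miR-26 and miR-101 families and are among the 2656 mature miRNAs in a count table from K562 cells. K562 is a human line derived from a chronic myeloid leukaemia in blast crisis. The members were taken by name, under the description of miRNAs known to repress EZH2: hsa-miR-26a-5p, hsa-miR-26b-5p, hsa-miR-26b-3p, hsa-miR-101-3p and hsa-miR-101-5p. Other miRNAs of these families were counted too and are not members. Azacitidine-sensitive K562 cells (3 libraries) were compared with K562 cells that had been kept for months in rising azacitidine, a cytidine analogue that depletes DNA methyltransferases, until they resisted it (3 libraries). All groups were grown in RPMI medium with serum and antibiotics. The labels call the libraries biological replicates, give the cell type as myeloblast and do not explain the letters NT in their names. They do not say whether the resistant cells still had drug in the medium at harvest, nor how many times resistance was selected, so the spread between libraries may be that of 1 selected population. The libraries hold RNA of bulk cultures, in which a lower level in every cell and fewer cells with the miRNA cannot be told apart.

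EZH2 is the methyltransferase of Polycomb repressive complex 2 (PRC2) and places the repressive trimethyl mark on lysine 27 of histone H3. miR-26a, miR-26b and miR-101 bind the 3′ untranslated region (3′ UTR) of its mRNA and lower EZH2 protein, and their loss has been linked to high EZH2 in several cancers. A miRNA hairpin gives a guide strand, which is loaded into Argonaute, and a passenger strand that is mostly degraded. In these hairpins the guides are the 5p arm of miR-26 and the 3p arm of miR-101.

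The mature sequences (RefSeq, GRCh38.p14) show which members can pair with the same target. Capitals mark the seed, bases 2 to 8 from the 5′ end, which sets most of the pairing.
hsa-miR-26a-5p: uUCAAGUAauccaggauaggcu
hsa-miR-26b-5p: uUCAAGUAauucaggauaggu
hsa-miR-101-3p: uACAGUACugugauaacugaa
hsa-miR-26b-3p: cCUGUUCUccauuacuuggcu
hsa-miR-101-5p: cAGUUAUCacagugcugaugcu
The guides miR-26a-5p and miR-26b-5p share a seed. Counted from the 5′ end they differ by C11U and C21U, and miR-26b-5p is 1 base shorter at 21 bases. The seed of miR-101-3p differs from theirs, and each passenger member has a seed of its own. How the authors assigned reads that fit more than 1 miRNA is not given in the sources used here, so some exchange of reads between miR-26a-5p and miR-26b-5p cannot be told apart from real levels.

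The hairpins lie at 5 places in the genome. MIR26A1 is in an intron of CTDSPL (chromosome 3, 37969404 to 37969480, plus strand), MIR26A2 in an intron of CTDSP2 (chromosome 12, 57824609 to 57824692, minus strand) and MIR26B in an intron of CTDSP1 (chromosome 2, 218402646 to 218402722, plus strand). These hosts encode small phosphatases that act on the C-terminal domain of RNA polymerase II. MIR101-2 is in an intron of RCL1 (chromosome 9, 4850297 to 4850375, plus strand). MIR101-1 (chromosome 1, 65058434 to 65058508, minus strand) overlaps no host gene on its strand in GENCODE 29. The sequence of miR-26a-5p is in 2 hairpins, MIR26A1 and MIR26A2, and that of miR-101-3p is in 2 as well, MIR101-1 and MIR101-2. The count of either guide therefore sums over its loci, while the passenger strands differ between them.

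The 3′ UTR of EZH2 (GENCODE 29 transcript, chromosome 7, minus strand, 262 bases) holds 1 match to the miR-26 seed and 2 matches to the miR-101-3p seed. They are shown in the transcript's direction with the match in capitals.
miR-26 seed match, chr7:148807388-148807410: ctttgaataaagaaTACTTGAac
First miR-101-3p seed match, chr7:148807579-148807601: ttcaggaacctcgaGTACTGTgg
Second miR-101-3p seed match, chr7:148807524-148807546: tctgaatttgcaaaGTACTGTaa
The letters searched on the transcript strand were TACTTGA and GTACTGT, which do not overlap each other here. Among the first 262 bases of the longest 3′ UTR of 16277 protein-coding genes, 1.77% held TACTTGA, 1.33% held GTACTGT and 7 genes (0.043%) held each of them. A match is a description of the sequence. EZH2 mRNA and protein are not analysed here.

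Library totals ran from 3291500 counts in resistant replicate 3 to 12563945 in sensitive replicate 1. Testing covered the 768 miRNAs that passed a filter on low counts. Resistant replicate 3 stood apart. Across miRNAs its log2 CPM correlated with those of resistant replicates 1 and 2 at r = 0.875 and 0.864 (Pearson), against 0.978 to 0.995 for the other pairs within a group, and 58.6% of its counts were miR-92a-3p, against 10.5% to 20.2% elsewhere. Annotations that resemble fragments of other RNAs (16 in the table of 19 listed) made up 4.996% of its counts and 1.01% to 1.70% of the others. All 4 erythroid miRNAs listed were detected, with a summed share of 0.497% to 0.682% of counts in sensitive and 1.29% to 4.91% in resistant libraries, and so were all 3 myeloid ones, with 1.11% to 1.25% and 0.104% to 1.30%. Of the erythroid miRNAs miR-486-5p carried the higher sum (log2 fold change 2.34, edgeR adjusted p = 0.130), while miR-451a, miR-144-3p and miR-144-5p stood at -0.94, -0.41 and -0.0016 (edgeR adjusted p = 0.296, 0.703 and 0.999). Without resistant replicate 3 these were 1.05 for miR-486-5p (edgeR adjusted p = 0.00218) and -0.49, 0.09 and 0.43 for the others (edgeR adjusted p = 0.186, 0.893 and 0.327). Of the myeloid miRNAs, miR-223-3p was then at -0.99 (edgeR adjusted p = 0.00733). miR-142-3p and miR-142-5p were at -0.17 and -0.32 (edgeR adjusted p = 0.546 and 0.283). That fit called 28.1% of all tested miRNAs. The part of these differences in the results was not tested. Of the miRNAs of liver, muscle and brain, miR-122-5p was at 2.41 to 6.33 CPM, miR-1-3p at 0 to 3.57 CPM and miR-133a-3p at 0 to 0.393 CPM, while miR-9-5p reached 6895 CPM. The results that follow are given with and without resistant replicate 3.

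None of the miR-26 and miR-101 guides was called by the edgeR test with all 6 libraries, which does not show that their levels were equal. Among all tested miRNAs 4.17% were called (32 of 768, edgeR's quasi-likelihood test with Benjamini-Hochberg adjusted p under 0.05). Among the 4 members with enough counts 0 were called, and 0 had an unadjusted p under 0.05. With so few members this count cannot be told apart from the share over all miRNAs. DESeq2 and limma-voom also called 0. With library quality weights limma-voom called 1, miR-101-3p, in a fit that called 42.1% of all tested miRNAs. The fifth member, miR-101-5p, was too low to test. All 4 tested members had log2 fold changes below 0 (median -0.28, against -0.11 over all tested miRNAs). Without resistant replicate 3 the call rate over all miRNAs rose to 28.1% (231 of 822), and still 0 of the 4 members were called. DESeq2 called 0 of them too, and 1 member, miR-101-3p, had an unadjusted p under 0.05. The log2 fold changes of miR-26a-5p, miR-26b-5p and miR-26b-3p were then at or above 0 (median of the 4 members 0.08, against 0.04 over all). The median over all tested miRNAs with 6 libraries depended on scaling and was -0.01 with RLE factors and 0.09 with library totals. The members' direction depended on it as well. With RLE factors 3 of the 4 were below 0 (median -0.21), and with library totals 2 of the 4 (median -0.03).

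hsa-miR-26a-5p was the most abundant member and ranked 7 by count in each sensitive library and between 5 and 9 in the resistant ones. Counts were 408939, 327537 and 170626 in sensitive replicates 1 to 3 and 322502, 408811 and 31846 in resistant replicates 1 to 3. Scaled to library size with TMM factors the sensitive replicates had 34039, 33453 and 31570 CPM (counts scaled to a common library size) and the resistant replicates 32824, 30847 and 12510 CPM. Resistant replicate 1 lay inside the sensitive range, resistant replicate 2 just under it and resistant replicate 3 far below. That order depended on scaling: as a share of all counts miR-26a-5p was 3.01% to 3.25% in sensitive libraries, 3.88% and 3.84% in resistant replicates 1 and 2, above the sensitive range, and 0.968% in resistant replicate 3 (the TMM factors were 0.955 to 0.960 for the sensitive group and 1.18, 1.25 and 0.774 for resistant replicates 1 to 3). The log2 fold change, resistant over sensitive, was -0.38 (SE 0.46, approximate 95% interval -1.44 to 0.68, edgeR adjusted p = 0.612). Without resistant replicate 3 it was 0.00019 (SE 0.16, interval -0.34 to 0.34, edgeR adjusted p = 0.999). These intervals hold for TMM factors and do not cover the choice of scaling. With library totals and all 6 libraries the log2 fold change was -0.13.

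hsa-miR-26b-5p, the guide made in CTDSP1, was less abundant. It was at 6500, 7510 and 5948 CPM in sensitive replicates 1 to 3 and at 6892, 7470 and 3277 CPM in resistant replicates 1 to 3. In CPM resistant replicates 1 and 2 lay inside the sensitive range and resistant replicate 3 below it. As a share of all counts resistant replicates 1 and 2 (0.815% and 0.930%) were above the sensitive range of 0.568% to 0.721%, and resistant replicate 3 (0.253%) was below it. The log2 fold change was -0.18 (SE 0.43, interval -1.16 to 0.81, edgeR adjusted p = 0.794), and 0.17 without resistant replicate 3 (SE 0.18, interval -0.23 to 0.56, edgeR adjusted p = 0.563). A correction for the GC content of the mature sequence, run on the 5 libraries without resistant replicate 3, gave a call, 0.44 (edgeR adjusted p = 0.0369), in a fit that called 25.9% of all tested miRNAs. The sign was also above 0 when libraries were scaled by their totals (0.07), so no direction is given for this guide.

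Among the 4 tested members, hsa-miR-101-3p had the lowest level in resistant relative to sensitive cells. It was at 3385, 4422 and 2749 CPM in sensitive replicates 1 to 3 and at 2217, 2411 and 357 CPM in resistant replicates 1 to 3. All 3 resistant libraries lay below all 3 sensitive ones, which was also so, in either direction, for 41.8% of all tested miRNAs. As a share of all counts the groups overlapped, with 0.262% to 0.425% for the sensitive group against 0.262%, 0.300% and 0.0276% for resistant replicates 1 to 3, so the separation depended on how libraries were scaled. The group mean was 3518 ± 844 CPM for sensitive and 1662 ± 1134 CPM for resistant libraries (SD, n = 3 per group). The log2 fold change was -1.08 (SE 0.67, interval -2.63 to 0.46, edgeR adjusted p = 0.316). Without resistant replicate 3 it was -0.55, a 1.46-fold difference (SE 0.22, interval -1.04 to -0.06), with an unadjusted edgeR p of 0.0304 and an adjusted p of 0.0896. It passed with library quality weights over all 6 libraries (-0.64, limma-voom adjusted p = 0.0169), a fit that called 42.1% of all tested miRNAs, and with the GC correction on 5 libraries it was at -0.27 (edgeR adjusted p = 0.267). The value thus moved by over 1.5 times with resistant replicate 3 and with GC content, and was below 0 in all 18 alternatives run.

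**Figure D1:**
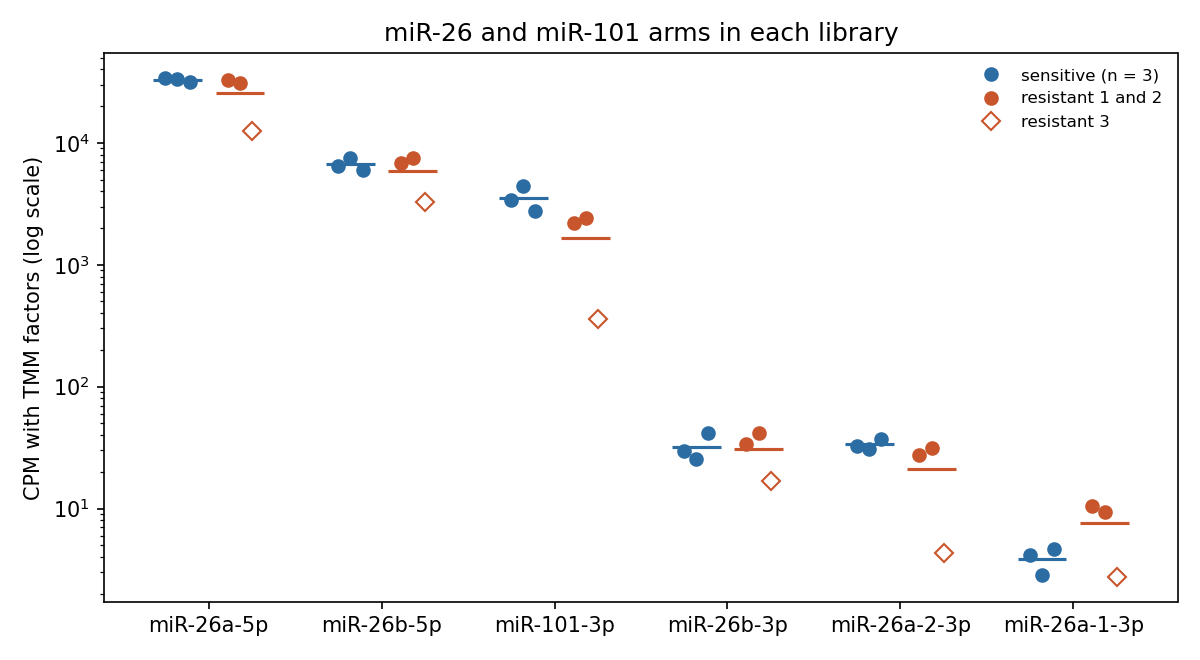
Each point is the CPM of 1 library (log axis, TMM factors) for the tested members and the passenger strands of miR-26a. Horizontal lines are arithmetic means of the 3 libraries of a group. Resistant replicates 1 and 2 sit close to the sensitive libraries for miR-26a-5p and miR-26b-5p and below them for miR-101-3p, and resistant replicate 3 (open diamond) lies lowest for each arm shown.

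The passenger members were rare. hsa-miR-26b-3p was at 29.5, 25.4 and 41.8 CPM in sensitive replicates 1 to 3 and at 33.9, 41.4 and 16.9 CPM in resistant replicates 1 to 3. Its groups overlapped, with a log2 fold change of -0.06 (SE 0.46, interval -1.13 to 1.01, edgeR adjusted p = 0.937) and of 0.28 without resistant replicate 3 (SE 0.28, interval -0.33 to 0.90, edgeR adjusted p = 0.512). hsa-miR-101-5p had 11, 14 and 5 counts in sensitive and 4, 8 and 0 counts in resistant replicates 1 to 3. In CPM the resistant libraries (0.407, 0.604 and 0) all lay below the sensitive ones (0.916, 1.43 and 0.925). Among the 768 tested miRNAs, which leave out miR-101-5p, the groups did not overlap, in either direction, for 41.8%. The 0 in resistant replicate 3 allows up to 1.18 CPM (3 counts, counting error only), which is above sensitive replicates 1 and 3, so for that library a difference was not detectable at this depth.

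The 3p arms of the MIR26A hairpins, which are not members, differ between the loci of miR-26a-5p, and the ratio between them did not overlap between the groups. They are shown because they differ by 5 substitutions, G11A, C19U, A20U, C21U and G22C. All but G11A lie at the 3′ end, where a shortened read would lose them. Some exchange of reads between these arms cannot be told apart from real levels.
hsa-miR-26a-1-3p: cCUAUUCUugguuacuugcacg
hsa-miR-26a-2-3p: cCUAUUCUugauuacuuguuuc
miR-26a-1-3p, from CTDSPL, had 50, 28 and 25 counts in sensitive and 104, 124 and 7 counts in resistant replicates 1 to 3. In CPM these were 4.16, 2.86 and 4.63 against 10.6, 9.36 and 2.75. Resistant replicates 1 and 2 were above all sensitive libraries and resistant replicate 3 below them. Its log2 fold change was 1.00 with all libraries (SE 0.56, edgeR adjusted p = 0.271). Without resistant replicate 3 it rose 2.69-fold (1.43 on the log2 scale, SE 0.31, interval 0.75 to 2.10, edgeR adjusted p = 0.00502). In that fit 13.7% of all tested miRNAs were called higher and 14.4% lower. miR-26a-2-3p, from CTDSP2, was at 32.6, 30.9 and 37.2 CPM in sensitive and at 27.4, 31.3 and 4.32 CPM in resistant replicates 1 to 3. Its log2 fold change was -0.66 (SE 0.65, edgeR adjusted p = 0.537), and -0.14 without resistant replicate 3 (SE 0.25, interval -0.68 to 0.41, edgeR adjusted p = 0.745).

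Within a library the ratio of miR-26a-2-3p to miR-26a-1-3p does not depend on scaling. This ratio was chosen after its values were seen. It was 7.84, 10.8 and 8.04 in sensitive and 2.59, 3.35 and 1.57 in resistant replicates 1 to 3. All resistant libraries were below all sensitive ones, and the ratio was 3.69-fold lower with 6 libraries and 2.99-fold lower without resistant replicate 3. In CPM the groups did not overlap, in either direction, for 41.8% of all tested miRNAs, and no such share was computed for ratios. A two-sided exact permutation test of 3 libraries against 3 gave p = 0.1, the smallest it can give. In resistant replicate 3 the ratio rests on 11 and 7 counts. The arms also differ in GC content, 31.8% for miR-26a-2-3p and 45.5% for miR-26a-1-3p, and the GC correction on 5 libraries left them at 0.12 and 1.52 on the log2 scale (edgeR adjusted p = 0.775 and 0.00362). The ratio of miR-26a-5p to the sum of its 3p arms was 925, 990 and 755 in sensitive and 865, 758 and 1769 in resistant replicates 1 to 3, with overlapping groups (exact permutation p = 0.8, also chosen after the values were seen).

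The 5p arm of MIR101-2, miR-101-2-5p, had 3, 2 and 1 counts in sensitive and 2, 7 and 0 counts in resistant replicates 1 to 3. With so few counts the balance of MIR101-1 and MIR101-2 could not be measured. The guide outnumbered miR-101-5p by 3697, 3092 and 2971 to 1 in sensitive replicates 1 to 3, by 5445 and 3995 to 1 in resistant replicates 1 and 2 and by at least 303 to 1 in resistant replicate 3 (floor of 3 counts per library). These ratios rest on 4 to 14 counts of the passenger, and no test was made.

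The other ratios within a library compare the guides with each other. miR-26a-5p outnumbered miR-26b-5p by 5.24, 4.45 and 5.31 to 1 in sensitive and 4.76, 4.13 and 3.82 to 1 in resistant replicates 1 to 3, with overlapping groups (exact permutation p = 0.2). miR-26a-5p outnumbered miR-101-3p by 10.1, 7.57 and 11.5 to 1 in sensitive and by 14.8, 12.8 and 35.0 to 1 in resistant replicates 1 to 3. All resistant libraries were above all sensitive ones, by 1.97-fold with 6 libraries and 1.44-fold without resistant replicate 3 (exact permutation p = 0.1, the smallest possible). In CPM the groups did not overlap, in either direction, for 41.8% of all tested miRNAs, and no such share was computed for ratios. These 2 guides also differ in GC content, 40.9% for miR-26a-5p and 33.3% for miR-101-3p, and the part of this in the ratio was not tested. The ratio of miR-26b-5p to miR-26b-3p overlapped, at 221, 295 and 142 in sensitive and 203, 180 and 194 in resistant replicates 1 to 3 (exact permutation p = 0.7). Adjusted over these 3 ratios and the summed share of the members, 4 values in all, the lowest exact permutation p was 0.4. The 5 members made up 4.20%, 4.36% and 3.85% of counts in sensitive replicates 1 to 3 and 4.96%, 5.08% and 1.25% in resistant replicates 1 to 3 (exact 95% binomial interval of the last 1.24% to 1.26%, counting error only), and their groups overlapped (exact permutation p = 1).

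**Figure D2:**
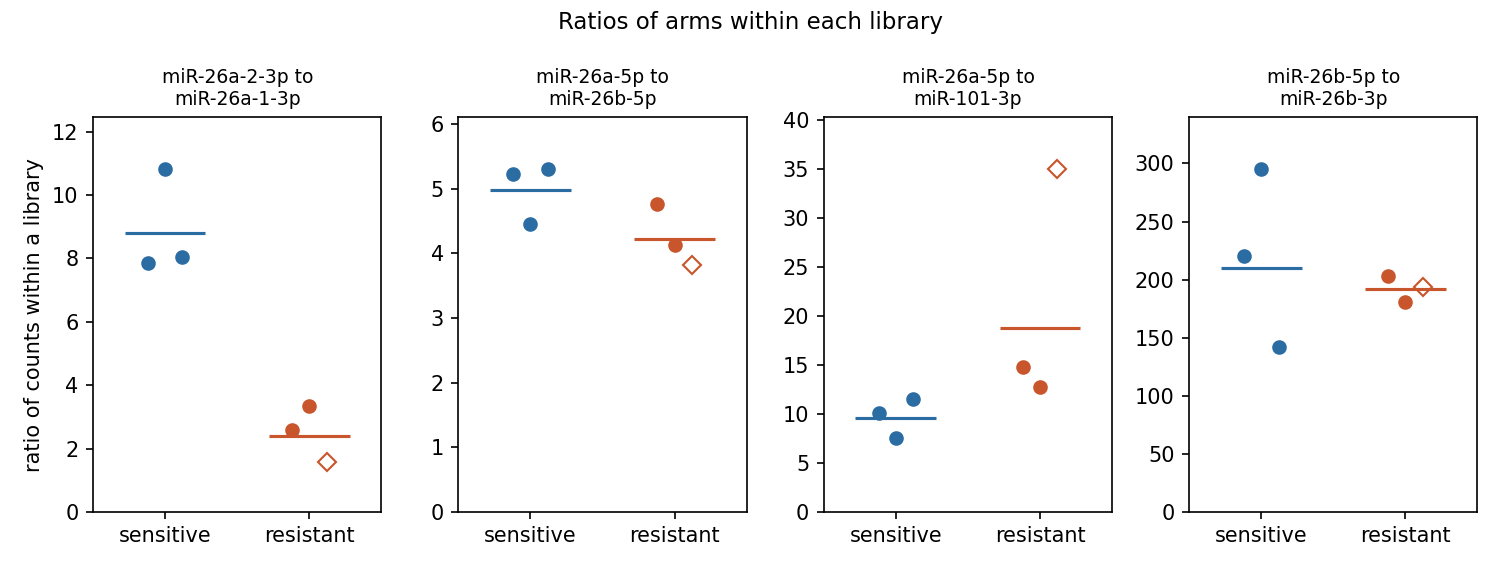
Each panel plots a ratio of counts within a library (linear axes from 0), with circles for single libraries, an open diamond for resistant replicate 3 and lines for geometric means. The ratio of miR-26a-2-3p to miR-26a-1-3p lies at 7.84 to 10.8 in sensitive and 1.57 to 3.35 in resistant libraries, and miR-26a-5p to miR-101-3p also separates the groups, while the other 2 ratios overlap.

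**Figure D3:**
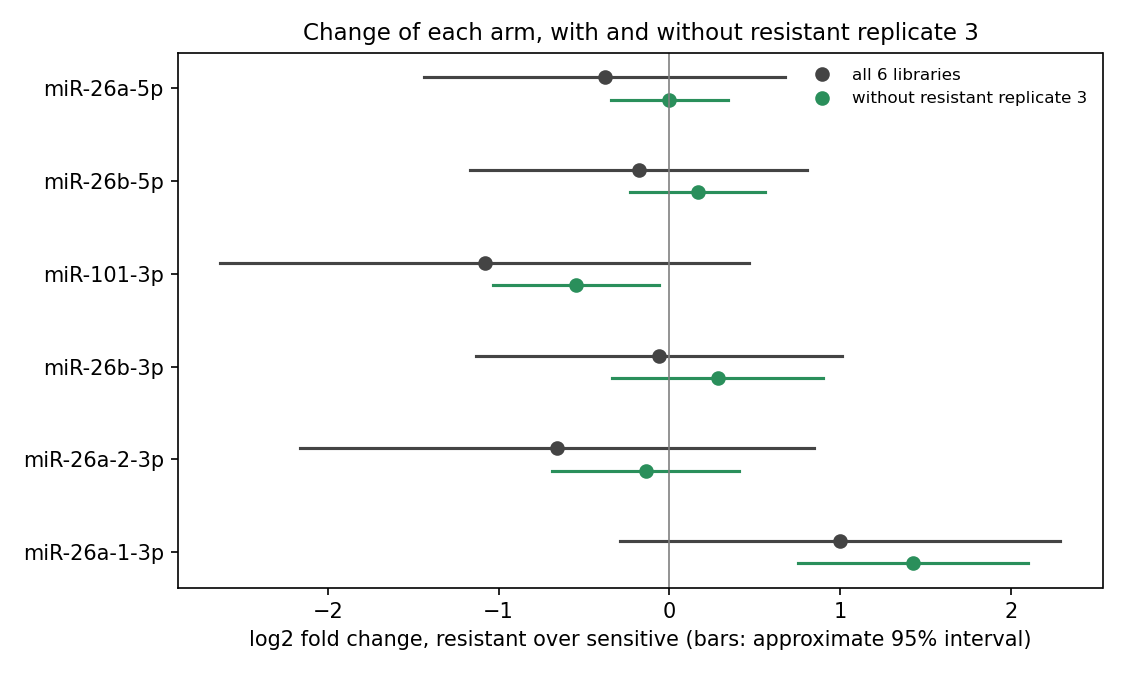
Points are log2 fold changes, resistant over sensitive, and bars approximate 95% intervals, with all 6 libraries (grey) and without resistant replicate 3 (green). Of the arms plotted, the green intervals of miR-101-3p (-1.04 to -0.06) and miR-26a-1-3p (0.75 to 2.10) leave out 0, and only miR-26a-1-3p had an adjusted p under 0.05.

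All 4 tested members were low in resistant replicate 3, a library whose deviations went with base composition. Against resistant replicates 1 and 2, that library was 2.54-fold lower for miR-26a-5p, 2.19-fold for miR-26b-5p, 2.20-fold for miR-26b-3p and 6.47-fold for miR-101-3p. Such drops were common: 33.6%, 37.8%, 37.6% and 10.8% of all 768 tested miRNAs, in the same order, deviated lower still. The mature sequences of miR-26b-5p and miR-101-3p have a GC content of 33.3% each, miR-26a-5p has 40.9% and miR-26b-3p 47.6%, against a median of 47.8% over the 677 tested miRNAs with a sequence. Over those miRNAs the deviation of resistant replicate 3 had a median of -2.22 (log2) for the 167 with a GC content under 40% and of 1.96 for the 118 with 60% or more. Spearman's rho between GC content and deviation was 0.715 across miRNAs, which share the library and are not independent replicates. The part of base composition in the members' values was not tested beyond the GC correction. With that correction and all 6 libraries, the log2 fold changes were 0.06 for miR-26a-5p, 0.69 for miR-26b-5p, 0.03 for miR-26b-3p and -0.52 for miR-101-3p, and 0 of the 4 were called (lowest edgeR adjusted p = 0.185).

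**Figure D4:**
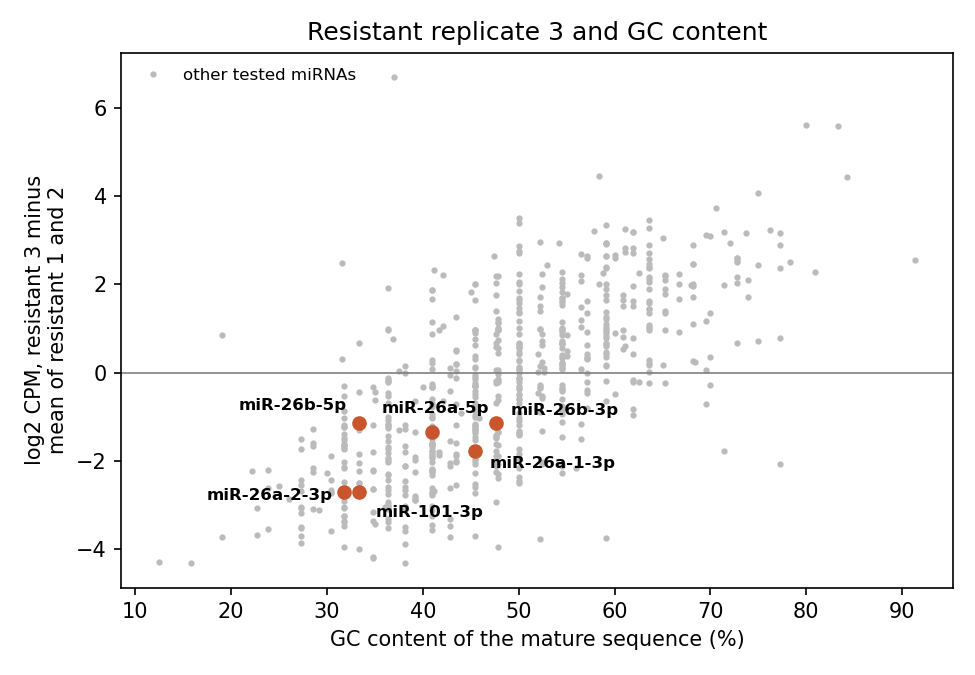
Each grey point is a tested miRNA, placed by the GC content of its mature sequence (percent) and by its log2 CPM in resistant replicate 3 minus the mean of resistant replicates 1 and 2. The labelled arms of miR-26 and miR-101 have GC contents of 31.8% to 47.6% and lie between -2.70 and -1.13, in a cloud whose rho is 0.715.

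Other miRNAs with the miR-26 seed are hsa-miR-1297 and hsa-miR-4465, and no other miRNA of the table with a sequence has that of miR-101-3p. miR-1297 had 0 counts in all libraries. miR-4465 had 12, 1 and 8 counts in sensitive and 29, 35 and 12 counts in resistant replicates 1 to 3, or 0.999, 0.102 and 1.48 against 2.95, 2.64 and 4.71 CPM. All resistant libraries were above all sensitive ones, and the groups did not overlap, in either direction, for 41.8% of all tested miRNAs. The log2 fold change of miR-4465 was 2.002 (SE 0.77, edgeR adjusted p = 0.159). With resistant replicate 3 left out, miR-4465 rose 3.62-fold (1.86 on the log2 scale, SE 0.59, edgeR adjusted p = 0.0353). That fit called 13.7% of all tested miRNAs higher. On the same 5 libraries the call was lost with the GC correction (1.69, edgeR adjusted p = 0.0592) and with DESeq2 (1.83, DESeq2 adjusted p = 0.0519). At these levels miR-4465 stayed far below miR-26a-5p, which had at least 12510 CPM in each library.

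Of 13 other miRNAs reported to target EZH2, 7 had enough counts to be tested, and with 6 libraries 3 rose and 0 fell (median log2 fold change 1.16, against -0.11 over all tested, of which 2.08% were called higher and 2.08% lower). Those that rose were of the let-7 family, which represses growth-promoting transcripts: let-7a-5p (5.75-fold, edgeR adjusted p = 0.0198), let-7b-5p (22.4-fold, 0.0154) and let-7c-5p (6.65-fold, 0.0467). Leaving out any 1 of the sensitive libraries ended all 3 calls, and leaving out resistant replicate 1 ended those of let-7a-5p and let-7c-5p. Over the 5 libraries without resistant replicate 3 the folds were 4.53 for let-7a-5p, 11.5 for let-7b-5p and 3.999 for let-7c-5p (edgeR adjusted p = 4.17e-06, 2.12e-06 and 2.36e-05). In that fit 5 rose and 0 fell (median log2 fold change 1.30, against 0.04 over all tested, of which 13.7% were called higher), and the additional calls were miR-98-5p, a further let-7 relative (2.47-fold, edgeR adjusted p = 0.00245), and miR-25-3p (1.74-fold, edgeR adjusted p = 0.00347). The other tested miRNAs, miR-144-3p and miR-30d-5p, stood at -0.41 and -0.45 on the log2 scale with 6 libraries (edgeR adjusted p = 0.703 and 0.470) and at 0.09 and -0.25 without resistant replicate 3 (edgeR adjusted p = 0.893 and 0.414). Counts were 0 to 2 per library for miR-124-3p, miR-137-3p, miR-138-5p, miR-214-3p, miR-217-5p and miR-506-3p. Near-identical let-7 members may exchange reads. let-7a-5p, let-7b-5p, let-7c-5p and miR-98-5p are of the same family, and the list's median in each fit is the value of miR-98-5p. The list was also chosen with earlier results of these data known. Its count and median are therefore no independent test of EZH2-targeting miRNAs as a class.

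A second list holds miRNAs that EZH2 is reported to silence and that in turn repress BMI1 and RING2, subunits of Polycomb repressive complex 1. Of its 5 members 4 were tested, of which 1 rose and 1 fell with 6 libraries (median log2 fold change -1.05, against -0.11 over all tested, of which 4.17% were called). miR-200c-3p rose 3.83-fold and miR-181a-5p fell 5.34-fold (edgeR adjusted p = 0.0355 each). Leaving out any 1 of the sensitive libraries or resistant replicate 1 ended each of these calls, and leaving out resistant replicate 2 ended that of miR-181a-5p. With resistant replicate 3 left out, where 28.1% of all tested miRNAs were called, miR-200c-3p was 3.48-fold higher and miR-181a-5p 7.25-fold lower (edgeR adjusted p = 9.62e-05 and 5.99e-06). miR-181b-5p then fell as well (2.98-fold, edgeR adjusted p = 0.000475), and miR-200b-3p had a log2 fold change of -0.66 (edgeR adjusted p = 0.0890). miR-203a-3p had 0 to 6 counts per library. This list too was chosen with earlier results of these data known.

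The miRNAs whose log2 CPM over the 6 libraries was most like that of miR-26a-5p were miR-30e-5p, miR-192-5p and miR-19a-3p (Pearson's r 0.997, 0.997 and 0.996, among 242 miRNAs averaging 100 CPM or more). Each was low in resistant replicate 3, as miR-30e-5p was with 523 CPM there against 3312 to 4061 CPM elsewhere. Without that library other miRNAs were most alike, miR-132-3p, miR-532-5p and miR-652-3p (r 0.903, 0.886 and 0.874 over 5 libraries). For miR-101-3p the nearest over 6 libraries were miR-380-3p, miR-655-3p and miR-337-3p (r 0.998, 0.998 and 0.997), and without resistant replicate 3 miR-380-3p, miR-376a-3p and miR-655-3p (r 0.997, 0.985 and 0.982). These are miRNAs of the imprinted DLK1-MEG3 region, and miR-380-3p was at 184, 290 and 147 CPM in sensitive and 98.6, 115 and 10.2 CPM in resistant replicates 1 to 3. The libraries of a comparison share depth and base composition effects, so these values describe likeness only.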

How the data were processed

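Small RNA of sensitive and resistant K562 cells (3 libraries each) was sequenced from NEBNext libraries on a NovaSeq instrument, per the labels' protocols. The authors deposited read counts per mature miRNA, with no normalization seen in the values. Per the submitters' processing notes, GRCh38 was used. The aligner, the counter and the miRBase release were not given in the sources used here, nor was the handling of shared reads. Adapter ligation and PCR preferences enter the counts, which carry no molecular identifiers, and a count compares a miRNA between libraries better than 2 miRNAs with each other.

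All 6 columns were mapped by library name. Pairs of replicates differed beyond sampling noise (chi-square per degree of freedom 124 to 4015). edgeR 4.0.16 in R 4.3.3 was run on all miRNAs kept by filterByExpr (minimum count 10, minimum total count 15), with TMM factors and the quasi-likelihood F test, without covariates, and Benjamini-Hochberg adjustment at 0.05. The script was tested on simulated data. SE is the absolute log2 fold change over the square root of F, and intervals use the t distribution with edgeR's degrees of freedom. Alternatives used DESeq2 1.42.0 and limma 3.58.1 (voom), other scaling and filters, a lowess GC offset per library (GC known for 88.2% of tested miRNAs), a replicate block and leaving out each library. Ratios had exact permutation tests. p-values cover the spread between libraries.

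Seeds and hairpins came from RefSeq (GRCh38.p14), hosts and 3′ UTRs from GENCODE 29. Named miRNAs are the members, the other arms of their hairpins, miRNAs with the same seed, 2 lists and the 3 most similar miRNAs (log2 CPM, prior count 2). Members and lists were chosen with earlier results of these data known.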

Additional observations from a re-analysis of the deposited data

How the results depend on the processing

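With 6 libraries 0 members were called, and 1 of 4 was called with library quality weights (miR-101-3p, -0.64; 323 of 768 over all miRNAs), with the GC correction without resistant replicate 3 (miR-26b-5p; 189 of 729) and, in a fit chosen after seeing the data, with the replicate block without resistant replicate 3 (miR-101-3p, -0.68; 335 of 822). miR-101-3p stayed below 0 in its 18 alternatives (-1.45 to -0.27, adjusted p 0.0109 to 0.604; -1.35 to -0.55 when 1 library was left out). miR-26a-5p turned to 0.065 with the GC correction, 0.00019 without resistant replicate 3 and 0.19 with these together, and ran from -0.51 to 0.00019 over the fits that left out 1 library. miR-26b-5p turned to 0.065 with library totals, 0.090 with quality weights, 0.69 with the GC correction and, without resistant replicate 3, to 0.44 with it, 0.10 with the replicate block and 0.16 with DESeq2, and ran from -0.23 to 0.17 over the fits that left out 1 library. miR-26b-3p turned to 0.019 with RLE factors, 0.19 with library totals, 0.084 with a minimum mean of 10 CPM, 0.027 with DESeq2, 0.30 with quality weights, 0.029 with the GC correction and, without resistant replicate 3, to 0.32 with it, 0.51 with the replicate block and 0.29 with DESeq2. Over the fits that left out 1 library it ran from -0.18 to 0.28. miR-26a-1-3p passed with quality weights (1.36) and, without resistant replicate 3, alone (1.43, fits that left out 1 library 0.79 to 1.43), with the GC correction (1.52), the replicate block (1.57) and DESeq2 (1.42). miR-26a-2-3p turned to 0.12 with the GC correction without resistant replicate 3, miR-144-3p to 0.35 with the GC correction and, without resistant replicate 3, to 0.093 (-0.77 to 0.093 when 1 library was left out), 0.39 with the GC correction and 0.082 with DESeq2, and miR-200b-3p to 0.11 with the GC correction. The cause of these turns was not tested.

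Over all miRNAs, 32 calls became 43 with library totals (27 higher, 16 lower), 21 with RLE factors, 162 without a filter, 14 with a minimum mean of 10 CPM, 149 with DESeq2 (98 higher, 51 lower, against 16 and 16), 323 with quality weights, 75 with the GC correction, 4 to 231 when 1 library was left out and, without resistant replicate 3, 189 with the GC correction, 335 with the replicate block and 224 with DESeq2. Of the other EZH2-targeting miRNAs 3 were called, 5 with DESeq2, 5 with quality weights, 1 with the replicate block and 0 to 5 when 1 library was left out (5 in each added fit without resistant replicate 3). Of the Polycomb repressive complex 1 list 2 were called, 1 with RLE factors, 1 with a minimum mean of 10 CPM, 4 with quality weights, 1 with the replicate block, 0 to 3 when 1 library was left out and 4 with the replicate block without resistant replicate 3. The labels do not say that a shared replicate number marks a shared batch. Deviations from the group means correlated at -0.06, 0.13 and 0.26 for pairs with the numbers 1, 3 and 2. For pairs with unlike numbers they correlated at -0.24 to 0.20. The resistant mean includes the outlying resistant replicate 3. Over all miRNAs the replicate block gave 23 calls with 6 libraries (32 without the block) and 335 without resistant replicate 3 (231 without the block). Whether the numbers pair the libraries cannot be told from these values. The log2 ratio of miR-26b-5p to miR-26b-3p turned from -0.13 to 0.12 without sensitive replicate 2 (range when 1 library was left out -0.41 to 0.12). Without resistant replicate 3 the log2 ratio of miR-26a-5p to the sum of its 3p arms turned from 0.25 to -0.13 (range when 1 library was left out -0.13 to 0.48), and the members' summed share of counts from -0.374 to 0.883 percentage points (range -1.03 to 0.883).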
